A study of Mus musculus with 8 samples.

Results

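The genes for the subunits of RNA polymerases I, II and III were examined in subcutaneous mouse melanomas. Members were chosen by symbol, as every gene of the deposited expression table named Polr1, Polr2 or Polr3 followed by letters alone, which matched 32 of 28918 genes. Of these, 31 encode a polymerase subunit or, for Polr2m, a protein that binds polymerase II. The other, Polr1has, is named as an antisense gene of Polr1h and was kept apart. The family, and its division into catalytic and small subunits, was taken up with the differences between the groups already known, so fold changes and calls below describe the members and support nothing.

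Tumors grew from B16-mhgp100 cells, a line of the B16 mouse melanoma that carries a gp100 antigen, in C57BL/6 mice. The cells either over-expressed Colq, which encodes the collagen-like tail of acetylcholinesterase, or carried the vector. Every mouse in both groups was dosed with an anti-PD1 antibody, which blocks a checkpoint receptor of T cells, so no group shows these tumors without it. Dosing began on day 10 after inoculation with 200 µg, was repeated 2 times a week until 4 doses were reached, and tumors were collected 1 day later. The 3 Colq tumors gave 1 library each. The 3 vector tumors gave 5 libraries, because 2 of them were sequenced as 2 portions, and portions were averaged per tumor on the log2 scale. Whether either line was 1 clone, and the age and sex of the mice, were not given in the sources used here. Nothing links the tumors to separate cultures of cells, so spreads and tests describe these tumors.

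Nuclear genes of eukaryotes are transcribed by 3 RNA polymerases. Polymerase I makes the precursor of the large ribosomal RNAs, polymerase II makes messenger RNA, and polymerase III makes transfer RNA, 5S ribosomal RNA and other short RNAs. In each enzyme a pair of very large subunits forms the catalytic centre and the cleft that holds DNA, while small subunits build the assembly platform, the stalk that meets the emerging RNA, and the jaw that takes part in RNA cleavage. Several small subunits are common to all of these enzymes, and growing tumor cells are known for heavy use of polymerases I and III in making ribosomes and transfer RNA.

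Promoter windows of 4 members are shown because they stand at both ends of the fold changes given below: Polr2a and Polr1a were the lowest in Colq tumors, and Polr2l and Polr2i were high. Each window runs from 250 bases before the gene's start to 50 after it, 5′ to 3′ on the gene's strand, from RefSeq on build GRCm38.p6. The windows are chr11:69758584-69758883 on the minus strand for Polr2a, chr6:71908803-71909102 on the plus strand for Polr1a, chr7:141475104-141475403 on the minus strand for Polr2l and chr7:30231824-30232123 on the plus strand for Polr2i. Capitals mark matches to the motifs searched.
Polr2a: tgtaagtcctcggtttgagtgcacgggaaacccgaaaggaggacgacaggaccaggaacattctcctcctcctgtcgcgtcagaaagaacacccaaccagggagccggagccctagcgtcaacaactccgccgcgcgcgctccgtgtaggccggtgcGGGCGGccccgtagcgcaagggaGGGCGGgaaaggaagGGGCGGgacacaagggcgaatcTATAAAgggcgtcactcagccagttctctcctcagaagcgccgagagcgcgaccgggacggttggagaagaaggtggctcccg
Polr1a: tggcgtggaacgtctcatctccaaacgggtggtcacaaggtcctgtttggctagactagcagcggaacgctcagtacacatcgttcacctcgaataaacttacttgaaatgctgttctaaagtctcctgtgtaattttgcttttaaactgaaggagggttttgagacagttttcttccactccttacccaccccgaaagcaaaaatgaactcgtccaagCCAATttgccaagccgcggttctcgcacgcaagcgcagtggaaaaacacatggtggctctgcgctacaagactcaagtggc
Polr2l: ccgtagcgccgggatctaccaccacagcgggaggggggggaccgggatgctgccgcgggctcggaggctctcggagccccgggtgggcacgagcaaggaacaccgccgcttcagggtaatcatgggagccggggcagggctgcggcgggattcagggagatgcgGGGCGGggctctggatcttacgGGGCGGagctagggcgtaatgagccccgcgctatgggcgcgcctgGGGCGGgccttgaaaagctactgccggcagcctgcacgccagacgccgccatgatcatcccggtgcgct
Polr2i: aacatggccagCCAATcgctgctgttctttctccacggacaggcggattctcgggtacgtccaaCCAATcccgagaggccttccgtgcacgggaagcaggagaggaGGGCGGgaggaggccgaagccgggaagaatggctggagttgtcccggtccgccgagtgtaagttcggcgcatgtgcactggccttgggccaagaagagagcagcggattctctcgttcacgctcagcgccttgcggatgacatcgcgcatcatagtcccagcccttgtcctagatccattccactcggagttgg

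The motifs searched, on both strands, were the TATA box (TATAAA), the GC box (GGGCGG), the CCAAT box (CCAAT), the E-box (CACGTG), the ETS motif (CCGGAAG) and the cAMP response element (TGACGTCA). Each was counted separately, also where it overlapped another. The Polr2a window held 1 TATA box, at position 218 of its 300 bases, and 3 GC boxes. The Polr1a window held 1 CCAAT box and no other match. The Polr2l window held 3 GC boxes, and the Polr2i window held 1 GC box and 2 CCAAT boxes. Windows were counted for 25 of the 31 members, 28 windows in all, with member windows on 1 chromosome left out. Polr2d, Polr2g, Polr2k, Polr3a and Polr3d were among the members without a counted window. The shares of all windows were taken without leaving out a chromosome. A TATA box was in 7.14% of member windows and in 13.6% of all 32851 windows. A GC box was in 53.6% of member windows and in 35.7% of all windows, and a CCAAT box was in 32.1% of member windows and in 37.4% of all windows. The ETS motif was in 28.6% of member windows, against 8.86% of all windows. The E-box was in 17.9% of member windows, against 7.15% of all windows. The cAMP response element was in 2 member windows, both of Polr1h, which is 7.14% of member windows, against 1.79% of all windows. A match is a run of letters and was not tested as a binding site.

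Expression was deposited as log2(TPM + 1), where TPM is a share of all transcripts in a library, scaled for transcript length. Because TPM carries no count of reads, the depth of the libraries is unknown; they listed between 19887 and 21602 genes above 0. Colq itself averaged 4.31 ± 0.63 TPM in Colq tumors, against 0.119 ± 0.058 TPM in vector tumors (SD, n = 3 each). All 32 matched genes passed the filter, a mean of at least 1 TPM over the 6 tumors, and were tested with limma among 13726 genes. Called means an adjusted p below 0.05 over all tested genes. Of all tested genes 11.3% were called higher and 59.6% lower, and the marker counts that follow stand beside these shares. Markers were counted on the deposited scale alone. The 7 melanoma markers, Pmel and Mlana among them, were above 0 in every library, and 6 were called lower, with a summed level of 10949 to 11272 TPM in Colq libraries and 17604 to 22339 TPM in vector libraries. All 10 skeletal muscle markers were called higher, at 959 to 978 TPM summed in Colq libraries and 35.0 to 178 TPM in vector libraries, with Pvalb at 0 in at least 1 library. Among macrophage markers 3 of 8 were called higher and none lower, with sums of 1218 to 1246 TPM in Colq libraries and 324 to 723 TPM in vector libraries. T cell markers had 3 of 6 called higher (28.7 to 35.8 TPM in Colq libraries and 12.3 to 30.1 TPM in vector libraries), and fibroblast markers had 2 of 4 called higher and 1 lower (174 to 191 TPM in Colq libraries and 73.2 to 137 TPM in vector libraries). All 3 tested endothelial markers were called lower (10.3 to 12.2 TPM in Colq libraries and 29.5 to 45.3 TPM in vector libraries). Keratinocyte markers had 3 of 4 called higher (30.1 to 33.8 TPM in Colq libraries and 0 to 191.6 TPM in vector libraries), and each of the 4 was at 0 in some library. Mitochondrially encoded RNA took 7.47 to 8.16% of TPM in Colq libraries and 3.75 to 5.27% in vector libraries.

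The comparison of Colq with vector tumors asks which transcripts differ between the groups after the same antibody. All 6 catalytic subunit genes, 2 for each polymerase, were lower in Colq tumors (median log2 fold change -1.19), while the 24 small subunit genes had a median of -0.16. Of the 31 members, 6 were called higher, where 11.3% of all tested genes were called higher. A further 19 were called lower, where 59.6% of all tested genes were called lower, and 6 were not called. The median over the members was -0.32, and the median over all tested genes was -0.50. Whether the groups overlapped is told below gene by gene. The share of all tested genes whose groups did not overlap was not counted, so a gap between groups sets no member apart from other genes. In bulk tumors, fewer cells of a type and less RNA per cell cannot be told apart. The melanoma, muscle and macrophage marker levels and the mitochondrial share given above moved with the same groups, and their part in these differences was not tested.

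**Figure D1:**
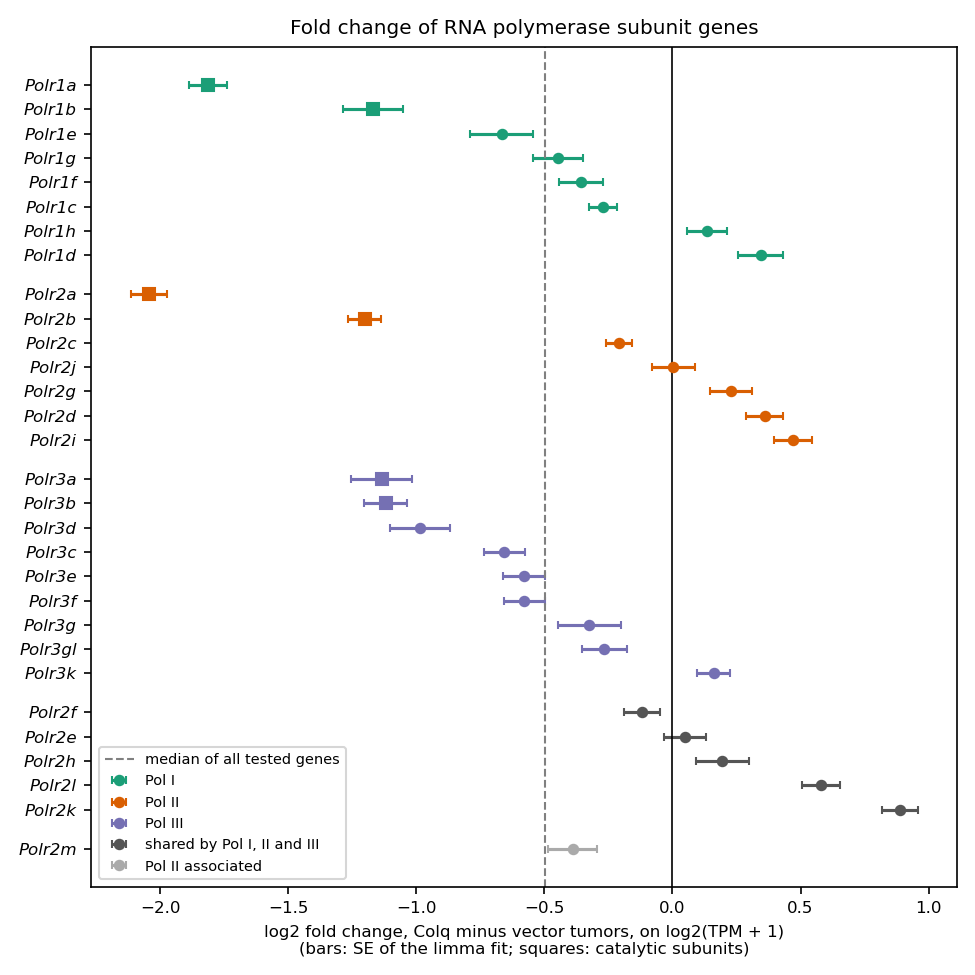
Log2 fold change of the members described, Colq minus vector tumors, on the log2(TPM + 1) scale (horizontal axis), one row per gene and grouped by polymerase; bars are the SE of the limma fit (3 tumors a group), squares mark catalytic subunits and the dashed line marks the median of all tested genes, -0.50. The 6 squares lie between -2.04 and -1.12, left of every circle, and Polr2k lies farthest to the right at 0.89.

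These counts depended on the scaling of the libraries. With median-of-ratios size factors, which set the median over all tested genes near 0 and so moved it by 0.50, 15 of the 31 members were called higher and 7 lower, where 28.2% of all tested genes were called higher and 25.7% lower. The 6 catalytic genes were all called lower there too, with a median of -0.64, while the small subunits had a median of 0.40 with 15 called higher and 1 lower. With a trend on exonic length and GC content removed, 8 members were called higher and 10 lower, against 19.8% and 28.0% of 13215 genes. Again all 6 catalytic genes were called lower, with a median of -0.66, and the small subunits had a median of 0.03. With a trend on coding length removed instead, 2 members were called higher and 8 lower, against 18.4% and 28.2% of 11910 genes. There 3 of the 6 catalytic genes were called lower, Polr2a, Polr1a and Polr2b, with a catalytic median of -0.29.

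Polr2a, the largest catalytic subunit of polymerase II, stood at 18.0, 18.5 and 17.2 TPM in the Colq tumors, against 75.2, 82.1 and 73.8 TPM in the vector tumors. The groups lay far apart, and the log2 fold change of -2.04 (SE 0.07) was the lowest in the family. Its 5 vector libraries stood at 80.0 and 70.7 TPM for the portions of tumor 1, at 70.8 and 95.1 TPM for those of tumor 2, and at 73.8 TPM for tumor 3. Polr2b, the second catalytic subunit, stood at 19.3, 19.2 and 18.9 TPM in the Colq tumors, against 46.6, 45.8 and 43.7 TPM in the vector tumors (log2 fold change -1.20, SE 0.06). Every vector tumor was more than 2-fold above every Colq tumor for both of these genes.

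Small subunits of polymerase II did not follow its catalytic pair. Polr2i, of the jaw that takes part in RNA cleavage, stood at 88.5, 96.4 and 83.8 TPM in the Colq tumors, against 65.9, 66.5 and 60.6 TPM in the vector tumors (log2 fold change 0.47, SE 0.07). Polr2d, of the stalk, stood at 73.2, 74.9 and 81.2 TPM in the Colq tumors, against 61.5, 54.9 and 61.6 TPM in the vector tumors (0.36, SE 0.07). The groups did not overlap for either gene, and the Colq tumors were the higher ones. Polr2c and Polr2j are subunits of the assembly platform. Polr2c stood at 87.5, 92.2 and 91.8 TPM in the Colq tumors, against 104.9, 104.4 and 104.7 TPM in the vector tumors (-0.21, SE 0.05), a narrow gap with no overlap. Polr2j stood at 99.9, 97.5 and 102 TPM in the Colq tumors, against 111.3, 99.3 and 89.4 TPM in the vector tumors, so the groups overlapped and its fold change was close to 0. Polr2g, of the stalk, averaged 111.0 ± 6.79 TPM in Colq tumors, against 94.8 ± 8.51 TPM in vector tumors (SD, n = 3 each); it was called higher (0.23, SE 0.08). That call was lost without Colq replicate 1 (limma, adjusted p = 0.126), without Colq replicate 3 (0.0893), without Vector replicate 2 (0.112) and without Vector replicate 3 (0.0806). Of the 5 small subunits named for polymerase II, 3 were called higher and 1 lower, where 11.3% of all tested genes were called higher and 59.6% lower. With size factors all 5 were called higher, Polr2c and Polr2j among them, where 28.2% of all tested genes were. With the coding length trend removed, 1 was called higher and 1 lower, and the median was 0.14. In that setting 18.4% of all tested genes were called higher and 28.2% lower.

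**Figure D2:**
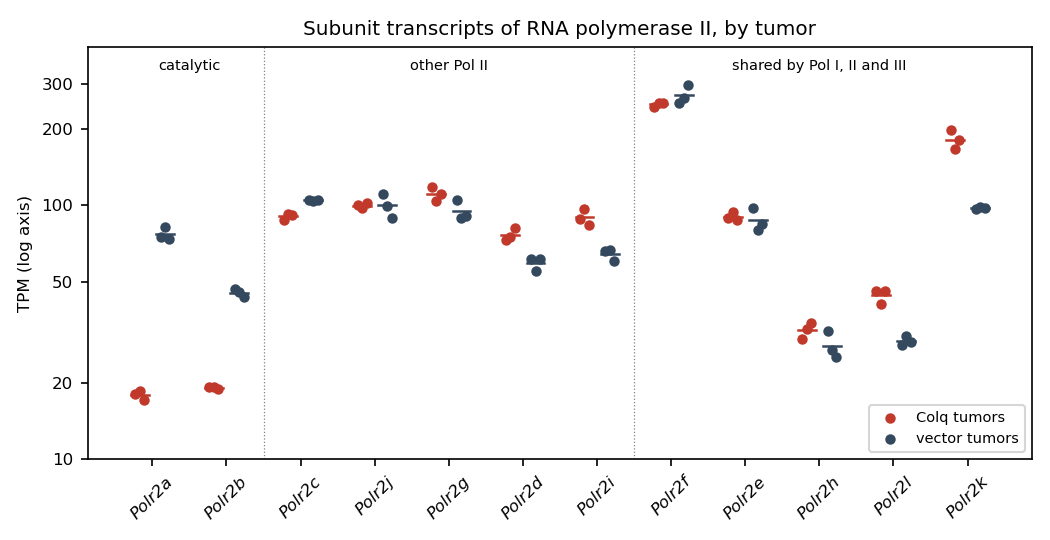
Transcript level (TPM, log axis) of the 12 subunit genes of RNA polymerase II in each tumor, Colq in red to the left of vector in dark blue, with a line at each group mean (3 tumors a group). The Colq points of Polr2a and Polr2b lie below all vector points, at 17.2 to 19.3 TPM, and those of Polr2k lie above them, at 167 to 197 TPM.

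The 5 subunits common to all of the polymerases carry Polr2 symbols and are small. Polr2k, the smallest by encoded residues (58), stood at 197, 167 and 180.4 TPM in the Colq tumors, against 96.7, 98.1 and 97.4 TPM in the vector tumors. Its log2 fold change of 0.89 (SE 0.07) was the highest in the family, and the groups did not overlap. A processed pseudogene, Polr2k-ps, stands in the GENCODE M21 annotation, so reads that it shares with Polr2k make this level uncertain. Polr2l, with 67 residues, stood at 46.1, 40.9 and 45.8 TPM in the Colq tumors, against 28.1, 30.5 and 29.0 TPM in the vector tumors (0.58, SE 0.07), again without overlap. Polr2f stood at 244, 253 and 252.8 TPM in the Colq tumors, against 253.5, 264.8 and 297.7 TPM in the vector tumors. Polr2e stood at 89.3, 93.8 and 87.4 TPM in the Colq tumors, against 97.6, 80.2 and 84.3 TPM in the vector tumors. The groups lay next to each other for Polr2f and overlapped for Polr2e, and neither gene was called, nor was Polr2h. In all, 2 of these 5 genes were called higher and none lower, where 11.3% of all tested genes were called higher and 59.6% lower. Their median log2 fold change was 0.19, beside -0.50 over all tested genes and 0.13 over all tested genes that encode under 200 residues. With size factors all 5 were called higher, where 28.2% of all tested genes were. With the coding length trend removed, 1 was called higher and 1 lower, and the median was 0.03. In that setting 18.4% of all tested genes were called higher and 28.2% lower.

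Polr1a, the largest catalytic subunit of polymerase I, stood at 12.5, 12.3 and 13.2 TPM in the Colq tumors, against 46.3, 44.8 and 50.1 TPM in the vector tumors. The groups were well separated, and the log2 fold change was -1.81 (SE 0.07). Polr1b, the second catalytic subunit, stood at 17.7, 17.1 and 13.3 TPM in the Colq tumors, against 38.3, 34.4 and 38.75 TPM in the vector tumors (-1.17, SE 0.12). The third Colq tumor was the lowest of the 6 for Polr1b and no group overlapped the other. Polr1d and Polr1c belong to the assembly platform and are also subunits of polymerase III. Polr1d stood at 203, 214 and 207 TPM in the Colq tumors, against 183, 166 and 144 TPM in the vector tumors (0.34, SE 0.09), and was the only one of the 6 small subunits named for polymerase I that was called higher. Polr1c averaged 78.1 ± 1.12 TPM in Colq tumors, against 94.5 ± 3.06 TPM in vector tumors (SD, n = 3 each; -0.27, SE 0.05), so the platform partners moved in opposite directions on this scale. With size factors both were called higher, Polr1c at 0.29.

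Polr1h, the subunit of polymerase I that takes part in RNA cleavage, stood at 41.1, 38.1 and 40.3 TPM in the Colq tumors, against 37.4, 38.4 and 32.85 TPM in the vector tumors. The groups overlapped and the gene was not called. Polr1e and Polr1g form a heterodimer that takes part in initiation and elongation. Polr1e stood at 13.5, 12.1 and 15.5 TPM in the Colq tumors, against 25.7, 21.2 and 20.2 TPM in the vector tumors (-0.67, SE 0.12). Polr1g stood at 12.3, 13.3 and 11.9 TPM in the Colq tumors, against 18.8, 18.0 and 15.5 TPM in the vector tumors (-0.45, SE 0.10). Both partners were lower in every Colq tumor than in any vector tumor. With Polr1f of the stalk (-0.36, SE 0.09) and Polr1c, 4 of the 6 small subunits of polymerase I were called lower, a share near the 59.6% of all tested genes. With size factors 3 were called higher and none lower, where 28.2% of all tested genes were called higher and 25.7% lower. Polr1f and Polr1g were above 0 there and not called.

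Polr3a, the largest catalytic subunit of polymerase III, stood at 5.74, 4.14 and 5.17 TPM in the Colq tumors, against 12.1, 12.3 and 12.0 TPM in the vector tumors (-1.14, SE 0.12). Polr3b, the second, stood at 5.33, 5.58 and 5.24 TPM in the Colq tumors, against 12.7, 12.8 and 13.05 TPM in the vector tumors (-1.12, SE 0.08). Both had a low level and a clear gap between the groups. Polr3d and Polr3e form a heterodimer that takes part in initiation and termination. Polr3d stood at 8.54, 11.0 and 10.7 TPM in the Colq tumors, against 21.7, 18.8 and 22.1 TPM in the vector tumors (-0.98, SE 0.12), the lowest fold change of any small subunit. Polr3e averaged 13.6 ± 0.49 TPM in Colq tumors, against 20.9 ± 1.46 TPM in vector tumors (SD, n = 3 each; -0.58, SE 0.08).

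Polr3c, of the subcomplex that acts in initiation, stood at 26.3, 31.0 and 28.1 TPM in the Colq tumors, against 45.9, 47.0 and 43.1 TPM in the vector tumors (-0.66, SE 0.08). Its partner Polr3f had a log2 fold change of -0.58 (SE 0.08). The third position of that subcomplex is filled by either of a pair of paralogs, Polr3g, which is known from embryonic stem cells and tumor cells, and Polr3gl, which is widely expressed. Polr3gl stood at 20.1, 24.8 and 22.6 TPM in the Colq tumors, against 27.0, 28.0 and 26.45 TPM in the vector tumors (-0.27, SE 0.09). Polr3g averaged 5.16 ± 0.74 TPM in Colq tumors, against 6.68 ± 0.39 TPM in vector tumors (SD, n = 3 each; -0.32, SE 0.12). The ratio of Polr3g to Polr3gl was 0.229 ± 0.024 in Colq tumors, against 0.246 ± 0.021 in vector tumors (SD, n = 3 each), a gap smaller than the spread within either group. Reads that the paralogs share could be divided between them by the authors' estimation, so each is uncertain on its own. The call of Polr3g was lost without Colq replicate 1 (limma, adjusted p = 0.146), Colq replicate 2 (0.0864), Vector replicate 1 (0.0983), Vector replicate 2 (0.0622) or Vector replicate 3 (0.0942). The call of Polr3gl was lost without Colq replicate 1 (0.0931), Colq replicate 3 (0.0688), Vector replicate 1 (0.0621) or Vector replicate 2 (0.0826).

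Polr3k, the subunit that takes part in RNA cleavage, stood at 32.4, 33.25 and 32.1 TPM in the Colq tumors, against 27.7, 29.4 and 30.15 TPM in the vector tumors. It was the only subunit named for polymerase III whose fold change was above 0 (0.16, SE 0.07), and it was not called, although the groups did not overlap. Of the 8 small subunits named for polymerase III, 7 were called lower and none higher, where 59.6% of all tested genes were called lower. Their median of -0.51 was close to the -0.50 of all tested genes. With size factors 1 was called lower and 2 higher, where 25.7% of all tested genes were called lower and 28.2% higher.

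Polr2m, which encodes a protein that binds polymerase II and is no core subunit, averaged 139.2 ± 4.46 TPM in Colq tumors, against 184 ± 23.5 TPM in vector tumors (SD, n = 3 each; -0.39, SE 0.09). The portions of vector tumor 1 differed by 0.69 for this gene on the log2(TPM + 1) scale, more than its fold change, and with first portions alone it was not called. Polr1has stood at 6.60, 6.98 and 6.73 TPM in the Colq tumors, against 6.40, 9.04 and 6.61 TPM in the vector tumors, and was not called. The libraries carried no strand information, so reads of overlapping genes on opposite strands could not be told apart. In the GENCODE M21 annotation, 11 of the 31 members have exons that overlap another gene's on the opposite strand. The largest shares of exonic length are 26.8% of Polr2i with Tbcb, 18.1% of Polr2c with Dok4 and 15.9% of Polr2j with Lrwd1.

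To set large against small subunits of one enzyme, the mean log2(TPM + 1) of the small subunits named for it was subtracted from that of its catalytic pair within each tumor. The scale factor of a library nearly cancels in this difference. For polymerase II it was -2.25, -2.23 and -2.31 in the Colq tumors, against -0.55, -0.39 and -0.48 in the vector tumors. For polymerase I it was -1.09, -1.13 and -1.27 in the Colq tumors, against 0.02, 0.03 and 0.30 in the vector tumors. For polymerase III it was -1.32, -1.64 and -1.48 in the Colq tumors, against -0.80, -0.78 and -0.85 in the vector tumors. The groups did not overlap for any of the polymerases, and the direction was set by the known split. The difference between groups was -1.79 for polymerase II, -1.28 for polymerase I and -0.67 for polymerase III. The largest gap between portions of one tumor was 0.32, 0.37 and 0.30 in the same order. With the coding length trend removed these differences were -0.67 for polymerase II, -0.48 for polymerase I and 0.04 for polymerase III.

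**Figure D3:**
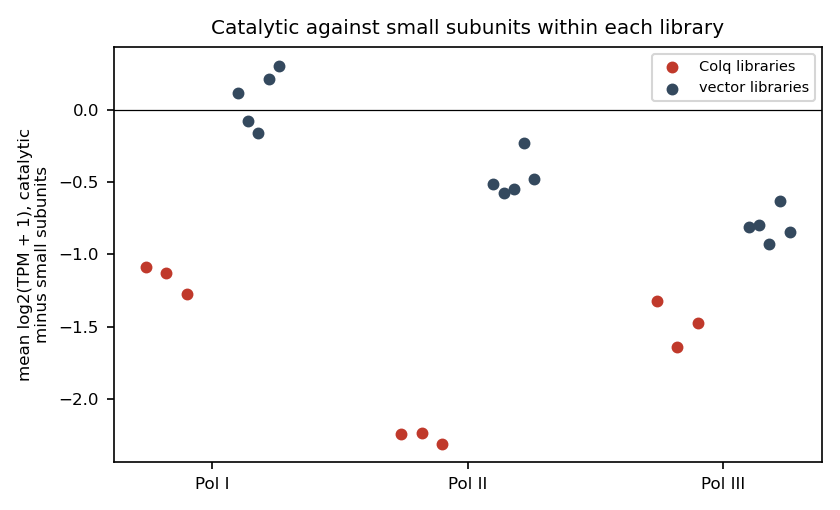
Mean log2(TPM + 1) of the 2 catalytic subunits minus that of the small subunits named for the same polymerase (vertical axis), one point per library, with 3 Colq libraries in red left of 5 vector libraries in dark blue. Colq points lie lower in each polymerase, at -2.31 to -2.23 for polymerase II against -0.58 to -0.23 in vector libraries.

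Ratios of levels within a tumor restate these fold changes for chosen pairs of genes. Polr2a and Polr2k had the lowest and highest fold changes of the family, and Polr2l the next highest. A gap between groups in the ratios to Polr2k and Polr2l was therefore set in advance. Polr2a stood at 0.099 ± 0.011 times the level of Polr2k in Colq tumors, against 0.791 ± 0.041 times in vector tumors (SD, n = 3 each). Polr2b stood at 0.434 ± 0.031 times the level of Polr2l in Colq tumors, against 1.55 ± 0.09 times in vector tumors. The catalytic pairs did not keep a fixed ratio either. Polr2a to Polr2b was 0.935 ± 0.029 in Colq tumors, against 1.70 ± 0.09 in vector tumors, and Polr1a to Polr1b was 0.806 ± 0.163 in Colq tumors, against 1.27 ± 0.05 in vector tumors. Polr3a to Polr3b was 0.935 ± 0.173 in Colq tumors, against 0.943 ± 0.020 in vector tumors, so this ratio differed by less than the spread between tumors.

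Fold change followed encoded size among the members; the division into large and small subunits was taken up with fold changes known, so this relation is a description of that choice. Across the 31 members, the log2 fold change had a Pearson correlation of -0.95 and a Spearman correlation of -0.93 with log2 of the number of encoded residues of the principal transcript. With log2 of exonic length the correlations were -0.80 and -0.79. Over the 24 small subunits alone the Pearson correlation with residues was -0.89. The points come from the same 6 tumors and members are not independent. Over all 11910 tested genes with a coding length it was -0.55, so genes with a longer coding sequence tended to lower fold changes throughout the table. Members that encode under 200 residues had a median log2 fold change of 0.23 (11 members), and all tested genes of that size had 0.13. From 200 to 400 residues the median was -0.36 for the members and -0.32 for all tested genes, and from 400 to 800 residues -0.66 for members and -0.65 for all. The members from 800 to 1200 residues, Polr1b, Polr2b and Polr3b, had a median of -1.17, and all tested genes of that size had -0.90. Above 1200 residues, the members Polr1a, Polr2a and Polr3a had a median of -1.81 and all tested genes had -1.07. Among the catalytic genes, Polr2a, Polr1a and Polr2b lay below the running lower quartile of genes of their size. Polr1b lay close to that quartile, and Polr3a and Polr3b lay above it. Polr3d, a small subunit, also lay below the lower quartile for its size. Polr3a and Polr3b had low levels, and the log2(TPM + 1) scale understates changes of low genes. With a pseudocount of 0.1 they stood at -1.27 and -1.24, beside -1.22 for Polr1b and -1.24 for Polr2b. The quartiles were not taken on that scale.

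**Figure D4:**
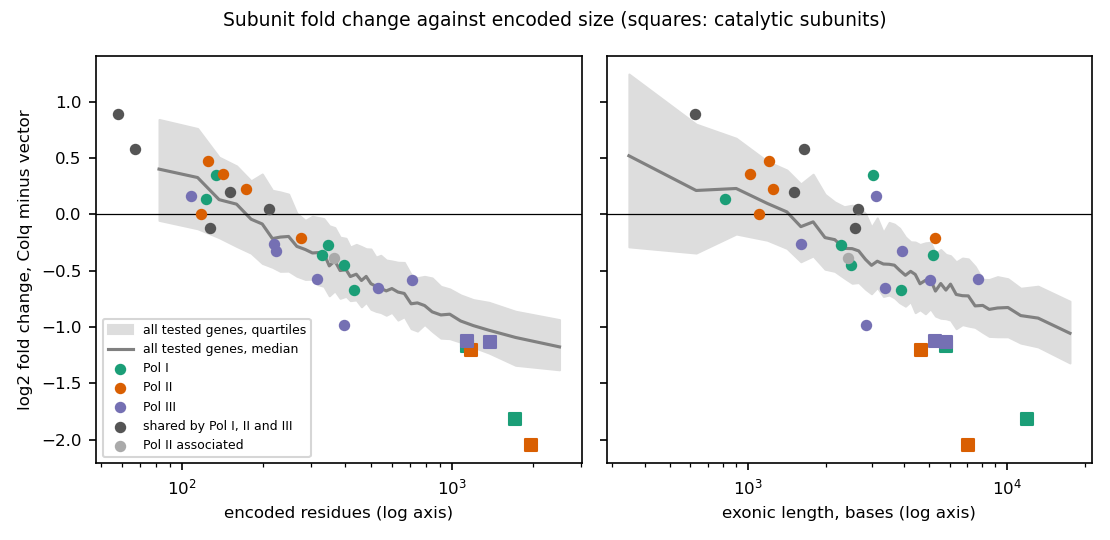
Log2 fold change of the members described, Colq minus vector, against encoded residues (left) and exonic length in bases (right), both on log axes, with the running median and quartiles of all tested genes in grey and catalytic subunits as squares. The members descend from Polr2k, 0.89 at 58 residues, to Polr2a, -2.04 at 1970 residues, along the grey median for most sizes.

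Portions of one tumor give a difference that the choice of members did not use, though there are only 2 such tumors. In vector tumor 1 the second portion minus the first had a median of -0.10 over the catalytic genes and 0.02 over the small subunits, with 0.01 over all tested genes. In vector tumor 2 the medians were 0.30 for catalytic genes and -0.05 for small subunits, with 0.11 over all tested genes. The medians thus differed between portions of tumor 2, but the small subunits, from -0.40 to 0.58, spanned the whole range of the catalytic genes, 0.03 to 0.57. The numbering of portions carries no order. In tumor 2 the difference was 0.42 for Polr2a, 0.57 for Polr3a and -0.40 for Polr2k. The absolute group difference was larger than both portion differences for 25 of the 31 members, among them all 6 catalytic genes, and for 72.2% of all tested genes.

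**Figure D5:**
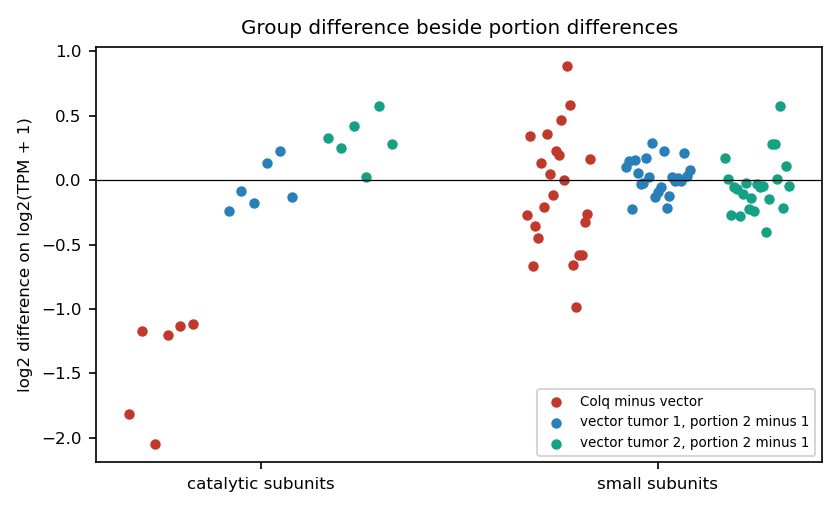
Log2 difference on the log2(TPM + 1) scale for the catalytic subunit genes and the small ones described: Colq minus vector tumors (red), and portion 2 minus portion 1 of vector tumor 1 (blue) and vector tumor 2 (green), one point per gene. The catalytic genes lie at -2.04 to -1.12 in red, while their portion differences lie between -0.24 and 0.57.

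The authors' deposited table of Colq against vector gives log2 fold changes from DESeq2, the tool named in the submitters' processing notes. In the authors' deposited table the 6 catalytic genes were all called lower, with a median of -0.72, where 20.4% of its 19153 genes were called lower. In the authors' deposited table, of the 24 small subunits, 14 were called higher and 1 lower, with a median of 0.38, where 20.1% of its genes were called higher and the median gene stood at 0.03. The extremes in the authors' deposited table were Polr2a at -1.56 and Polr2k at 1.44. It compares the same 2 groups and is read here as a description only.

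Factors that work with the polymerases were listed by function. Their counts stand beside 11.3% of all tested genes called higher and 59.6% called lower, or 28.2% higher and 25.7% lower with size factors. Of 7 polymerase I factors, 6 were called lower and none higher; the lowest was Ttf1, which ends transcription of ribosomal DNA, with a log2 fold change of -1.12, and Taf1d, of the promoter selectivity factor, was nearest to 0 at -0.08. With size factors 2 of the 7 were called higher and 3 lower. Of 18 general factors of polymerase II, 15 were called lower and 2 higher, and with size factors 2 were called lower and 6 higher. The lowest was Ercc3, a helicase of TFIIH, at -0.86. The highest was Gtf2a2, the small subunit of TFIIA, at 0.48. Of 17 polymerase III factors, 13 were called lower and none higher, with Gtf3c1, the largest subunit of TFIIIC, at -1.25 and Snapc5, of the complex that binds promoters of small nuclear RNA genes, at 0.26 and not called. With size factors 5 of the 17 were called higher and 7 lower. Crcp, counted in this list, encodes a polymerase III subunit whose symbol the rule for members did not match. It was called lower (-0.21, SE 0.07).

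Of 19 elongation factors, 16 were called lower and 1 higher, and with size factors 9 were called lower and 4 higher. Supt6, a histone chaperone that travels with polymerase II, was lowest at -1.54. Supt4a, the small partner of Supt5, was highest at 0.57, while Supt5 itself stood at -0.92. Of 9 assembly factors, 4 were called lower and 1 higher, with Rpap1, a polymerase II associated protein, at -1.16 and Uxt, a small prefoldin-like protein, at 0.35. With size factors 2 of the 9 were called lower and 4 higher. The medians of these lists, in the order given, were -0.62, -0.49, -0.70, -0.71 and -0.28, beside -0.50 over all tested genes. With size factors the medians were -0.12, 0.06, -0.15, -0.20 and 0.28, beside 0.001 over all tested genes. With the coding length trend removed the medians were -0.12, -0.11, -0.09, -0.10 and -0.06, beside -0.08 over all tested genes. In that setting 1, 5, 2, 8 and 0 genes of these lists were called lower, and 1, 1, 1, 2 and 2 higher. Of all tested genes 28.2% were called lower there and 18.4% higher. The catalytic subunits had medians of -1.19 as deposited, -0.64 with size factors and -0.29 with the coding length trend removed.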

How the data were processed

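Poly-A RNA of bulk tumors was sequenced from non-directional libraries, per the labels' protocols. The deposited log2 values are log2(TPM + 1), judged from the values: they return to TPM of 2 decimals for all but 38 genes, none of them members. RSEM and build mm39 are named in the submitters' processing notes; which aligner, versions and annotation were used was not given in the sources used here. The authors' deposited comparison, from DESeq2, has, per the file headers, columns for mean normalized signal, a log2 fold change with its SE, a Wald score and p-values; the libraries in it were not given in the sources used here. The sign of Colq set its direction.

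Portions were averaged on the log2 scale, giving 3 tumors against 3. Genes with a mean of at least 1 TPM were fitted on log2(TPM + 1), a scale that understates changes of low genes, in R 4.3.3 by limma 3.58.1, using lmFit and eBayes with trend, and Benjamini-Hochberg adjustment over all of them. Fold changes are Colq minus vector. Members, lists and alternatives were chosen with earlier results of these data known. One member is within the counts and medians and is not reported here on its own. Values per tumor were given for catalytic subunits and the 2 highest and 2 lowest others of each polymerase and of the shared set. Exonic length, residues and overlaps came from GENCODE M21 (GRCm38), which differs from mm39, with older symbols for Polr1f, Polr1g, Polr1h and Polr1has. Length trends were removed by loess (span 0.5). The fit was run on simulated tumors in which few genes changed. Most tested genes were called in these data, so that run does not bear on the calls given here. Tumor numbers did not pair the groups (correlations of 0.03, 0.007 and 0.04), so the replicate block is an alternative. Figures used Python 3.11.15 and matplotlib 3.10.9.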

Additional observations from a re-analysis of the deposited data

How the results depend on the processing

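Without 1 tumor at a time, 5 to 7 members were called higher and 17 to 18 lower. How many of all tested genes were called in these fits was not counted, so those member counts have no baseline. Across these fits the catalytic median lay between -1.23 and -1.17 and the small median between -0.19 and -0.14. The catalytic minus small difference lay between -1.33 and -1.19 for polymerase I, between -1.83 and -1.75 for polymerase II and between -0.75 and -0.59 for polymerase III. With 2 tumors left in a group, their spread is pooled with the other group's. The calls of Polr2g, Polr3g and Polr3gl were lost in some of these fits. Calls were also gained, as for Polr2h without Vector replicate 1 (0.29, limma, adjusted p = 0.028). In these fits Polr2j lay between -0.074 and 0.082, Polr2e between -0.0087 and 0.13 and Polr1has between -0.17 and 0.050, each with both signs and never called. The catalytic median was -1.26 with a pseudocount of 0.1 and -1.25 with second portions; Polr2j was -0.027 with second portions and -0.030 with all libraries and tumor as a random block. With the replicate block, Polr3g lost its call (adjusted p = 0.071) and no other member did. Polr3k was called higher among genes with a mean of at least 5 TPM (limma, adjusted p = 0.0495). It was also called with all libraries and tumor as a random block (limma, adjusted p = 0.039).

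The scaling moved most values, and the cause was not tested. Size factors gave 15 higher and 7 lower, a catalytic median of -0.64 and a small median of 0.40. Fold changes turned positive there for Polr1c (0.29), Polr1f (0.17), Polr1g (0.087), Polr1has (0.41), Polr2c (0.36), Polr2f (0.45), Polr2m (0.18), Polr3g (0.16) and Polr3gl (0.28). Quantile normalization gave 12 higher and 7 lower, a catalytic median of -0.66, a small median of 0.26 and a polymerase II difference of -1.65. It turned Polr1c (0.10), Polr1f (0.21), Polr1g (0.12), Polr1has (0.38), Polr2c (0.14), Polr2f (0.016), Polr3g (0.096) and Polr3gl (0.30) positive. TPM rescaled without mitochondrial, ribosomal protein, immunoglobulin and haemoglobin genes gave 10 higher and 13 lower. The catalytic median was -1.01 and the small median 0.031 there, with Polr1has at 0.085 and Polr2f at 0.077. The share of all tested genes called was not counted with quantile normalization or with this rescaling, so those member counts have no baseline.

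With the exonic length and GC trend removed, 10 members were called lower, the catalytic median was -0.66 and the small median 0.034. The differences were -0.72, -1.19 and -0.43 for polymerases I, II and III. Fold changes turned for Polr1f (0.0064), Polr1h (-0.21), Polr2c (0.41), Polr2f (0.24), Polr2j (-0.12) and Polr3f (0.022). The coding length trend, chosen after seeing the data, left 2 higher and 8 lower, a catalytic median of -0.29, a small median of -0.045 and differences of -0.48, -0.67 and 0.037. It turned Polr1c (0.061), Polr1h (-0.15), Polr1has (0.15), Polr2j (-0.31), Polr2l (-0.020), Polr3e (0.11) and Polr3k (-0.20). With shared subunits counted as small, the differences were -1.52, -1.87 and -0.99 for polymerases I, II and III. With large defined as at least 3000 bases of exon, they were -0.54, -1.42 and 0.040. Depth is unknown, and errors rest on the spread over tumors.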
